A study of Penicillium oxalicum with 6 samples.

Results

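A stretch of 42 consecutive locus tags of the filamentous fungus Penicillium oxalicum, POX_c04222 to POX_c04263, was described across 6 RNA sequencing libraries. It holds a block of 22 genes, POX_c04232 to POX_c04253, and the 10 locus tags on either side, out of 9822 genes listed per library. The block had been chosen because each of its genes was called higher in the POX_a00954 mutant than in the PoxKu70 strain in these same libraries. The difference between the strains is therefore given here as a description for the block and for its flanks. Calls from the fit over all genes are counted for them beside the share of all genes called, and support nothing about them.

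The libraries came from mycelium of the POX_a00954 mutant (n = 3) and of PoxKu70 (n = 3), whose genotype is labelled WT. PoxKu70 carries the name of Ku70, a protein of DNA end joining; fungal strains without it are often used as parents for gene replacement. The sources used here do not say which part of POX_a00954 was altered, or whether replicates were grown separately. Spores of both strains, from plates held at 28 °C for 4 days, were grown for 24 h with glucose and then for 24 h with raw starch as sole carbon source. The title of the series names POX_a00954 and POX_c03583 as transcription factors that act on enzymes degrading raw starch, and the comparison addresses what depends on the first of them.

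In filamentous fungi, genes that serve the same pathway often adjoin each other on a chromosome. Well known cases are clusters for secondary metabolites and for the use of particular nutrients, which commonly hold a few biosynthetic enzymes, a transporter and a regulator of their own. Such clusters can be silent under many growth conditions and be switched on as a unit, by a cluster-specific regulator or through the packing of the chromatin. Of the 42 locus tags, 40 were found in the RefSeq gene table of P. oxalicum HP7-1, all as protein-coding genes of chromosome III, and POX_c04261 and POX_c04262 were not. The table gives these genes no product and no symbol beyond the locus tag, so no role is assigned to any of them. The genes are grouped below by level, change and position.

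Values were the deposited FPKM, fragment numbers scaled by transcript length and library total, so levels can be set side by side between genes. The targeted gene POX_a00954 had 283, 275 and 441 FPKM in mutant replicates 1 to 3, against 716, 679 and 842 FPKM in PoxKu70 replicates 1 to 3. It was lower in the mutant but not absent (log2 change -1.19, SE 0.20, adjusted p = 0.0014 in limma; exact two-sided permutation p = 0.1, the smallest that 3 against 3 libraries allow). POX_c03583 averaged 94.7 ± 9.08 FPKM in the mutant and 186 ± 34.7 FPKM in PoxKu70 (SD, n = 3 each; adjusted p = 0.0014 in limma). The FPKM sums were 1338218 to 1409899 in mutant libraries and 1025654 to 1076733 in PoxKu70 libraries. FPKM files give no read totals. By the steps between low values, and relative to mutant replicate 1, the depth was 1.39 in mutant replicate 2, 1.15 in mutant replicate 3 and 1.53 to 1.97 in the PoxKu70 libraries. Of the 8448 genes tested, those averaging at least 1 FPKM over the 6 libraries, 30.5% were called higher and 30% lower in the mutant (adjusted p under 0.05 in limma). With every library rescaled to the same sum (TPM), which moved the overall median log2 change to -0.36, the numbers were 1655 higher and 3911 lower, in place of 2575 and 2532.

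The block was a region of weak expression in PoxKu70 and of high expression in the mutant. Summed over its 22 genes, it had 3600, 5510 and 7838 FPKM in mutant replicates 1 to 3, against 111, 130 and 124 FPKM in PoxKu70 replicates 1 to 3. These were shares of 0.262%, 0.412% and 0.556% of all FPKM in those mutant libraries, and of 0.0108% to 0.012% in PoxKu70 libraries. The mutant libraries were far apart from each other, yet the lowest of them was well above each PoxKu70 library. The log2 ratio of the summed means was 5.54, and it was 5.23 without mutant replicate 3 and 5.78 without mutant replicate 1.

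All 22 genes passed the filter and were called higher, as the choice of the block required, where 30.5% of all tested genes were. Likewise the libraries of the strains did not overlap for any of the 22 genes, where 34.4% of tested genes lay above PoxKu70 in this way. The median log2 change of the block was 5.42, with a range from 1.28 to 6.61, beside a median of -0.01 over all tested genes. In PoxKu70 the mean levels of the 22 genes ran from 0.53 to 29.6 FPKM with a median of 4.34 FPKM, and none reached the median of tested genes, 30.4 FPKM. In the mutant they ran from 12.6 to 724 FPKM with a median of 178 FPKM, and 19 of the 22 exceeded the median of tested genes, 29.1 FPKM. The best placed of them among all transcripts of the mutant, POX_c04240, ranked 301.

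**Figure D1:**
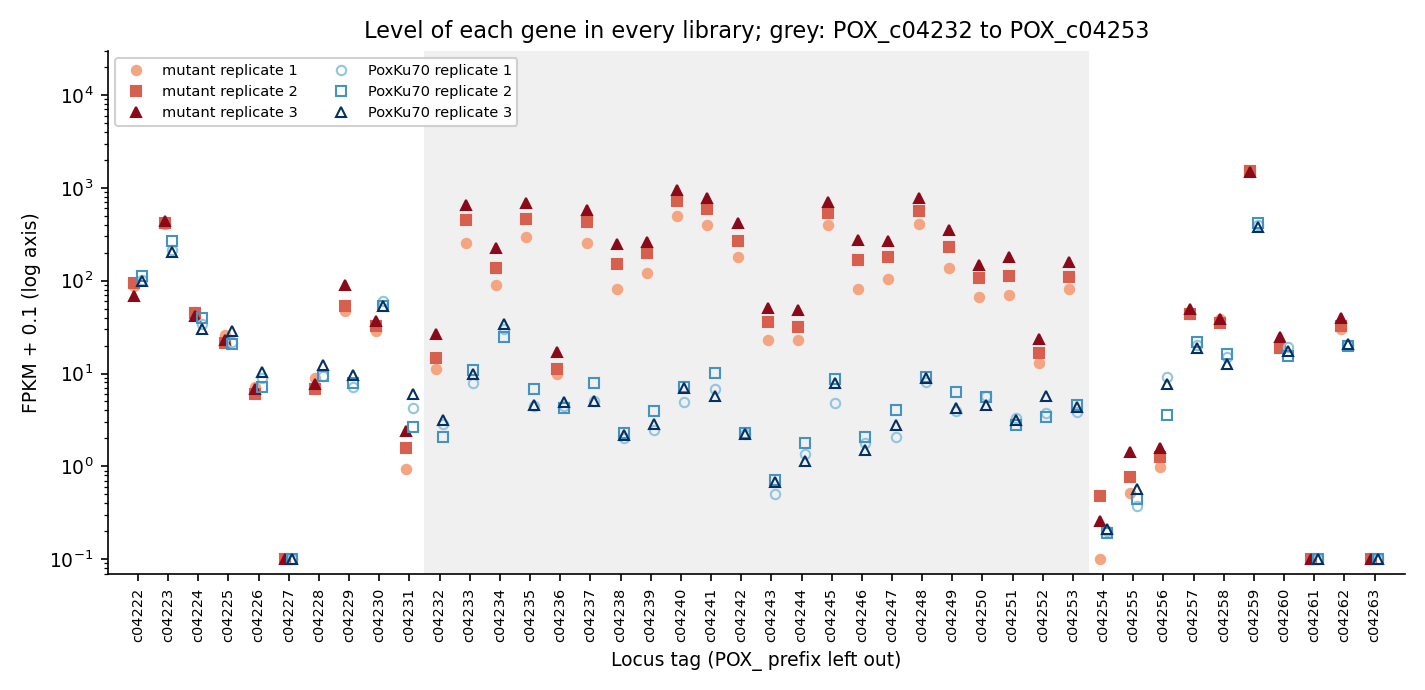
FPKM plus 0.1 on a log axis for the 42 locus tags in order, with filled symbols for the 3 mutant libraries and open symbols for the 3 PoxKu70 libraries; the grey area marks POX_c04232 to POX_c04253. Within the grey area each mutant library lies above each PoxKu70 library, and in the mutant replicate 3 is highest and replicate 1 lowest for all 22 genes.

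The 5 most abundant genes of the block in the mutant lay in its left part, its middle and its right part, and together made up 51.7% of its summed mutant level. POX_c04240 had 497, 719 and 957 FPKM in mutant replicates 1 to 3, against 4.82, 7.08 and 6.91 FPKM in PoxKu70 replicates 1 to 3. Its neighbour POX_c04241 had 400, 590 and 780 FPKM in the mutant, against 6.72, 10.02 and 5.58 FPKM in PoxKu70. In these genes the highest mutant library was 1.93 and 1.95 times the lowest, the highest PoxKu70 library 1.47 and 1.80 times the lowest, and the means of the strains stood 116-fold and 79.3-fold apart. POX_c04248 had 405, 563 and 773 FPKM in the mutant, against 7.93, 9.09 and 8.86 FPKM in PoxKu70. POX_c04245 had 402, 530 and 703 FPKM in the mutant, against 4.76, 8.53 and 7.74 FPKM in PoxKu70. POX_c04235 had 293, 464 and 691 FPKM in the mutant, against 4.37, 6.67 and 4.45 FPKM in PoxKu70. All 5 thus had at least 293 FPKM in each mutant library and at most 10.02 FPKM in each PoxKu70 library, with the same mutant library highest each time.

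With the pseudocount of 1 FPKM, the 3 largest log2 changes belonged to POX_c04240 at 6.61 (SE 0.25), POX_c04242 at 6.44 (SE 0.28) and POX_c04235 at 6.23 (SE 0.30). This order depended on the pseudocount. With 0.1 FPKM, POX_c04242 passed POX_c04240. With 5 FPKM, POX_c04242 fell below POX_c04241, POX_c04235, POX_c04245 and POX_c04248. By the ratio of mean FPKM, POX_c04246 exceeded POX_c04235. POX_c04242 had 179, 265 and 422 FPKM in mutant replicates 1 to 3, against 2.14, 2.16 and 2.12 FPKM in PoxKu70 replicates 1 to 3. The PoxKu70 libraries were nearly equal for this gene, and its 135-fold higher mean in the mutant was the highest fold of the block. The lowest PoxKu70 level was that of POX_c04243, which had 36.6 ± 13.8 FPKM in the mutant, against 0.53 ± 0.114 FPKM in PoxKu70 (SD, n = 3 each). A value below 1 FPKM may rest on few reads. The pseudocount of 1 FPKM lowers the log2 change of POX_c04243 to 4.55, although the means differ by 69-fold.

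The change was not even along the block. In 18 genes the mean in the mutant was 20.5-fold to 135-fold that in PoxKu70, and in the other 4 it was 2.81-fold to 6.73-fold. These folds rest on low PoxKu70 levels, with means under 5 FPKM in 13 genes of the block. The 4 genes were POX_c04232, POX_c04234, POX_c04236 and POX_c04252, grouped after their values were seen. POX_c04236 had 9.83, 11.2 and 16.9 FPKM in mutant replicates 1 to 3, against 4.42, 4.2 and 4.86 FPKM in PoxKu70 replicates 1 to 3. POX_c04252 had 12.8, 16.4 and 23.6 FPKM in the mutant, against 3.62, 3.33 and 5.6 FPKM in PoxKu70. These genes and POX_c04232 were the 3 least abundant of the block in the mutant. POX_c04234 was of another kind. It had 89.9, 138 and 224 FPKM in mutant replicates 1 to 3, against 30.4, 24.7 and 33.8 FPKM in PoxKu70 replicates 1 to 3. Its small change thus came with the highest PoxKu70 level of the block, more than 3 times that of the next gene, POX_c04233, at 9.52 ± 1.59 FPKM (SD, n = 3). The 4 genes held 33.7% of the summed PoxKu70 level of the block and 3.51% of its summed mutant level. Without them the summed means of the strains stood 67.7-fold apart.

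**Figure D2:**
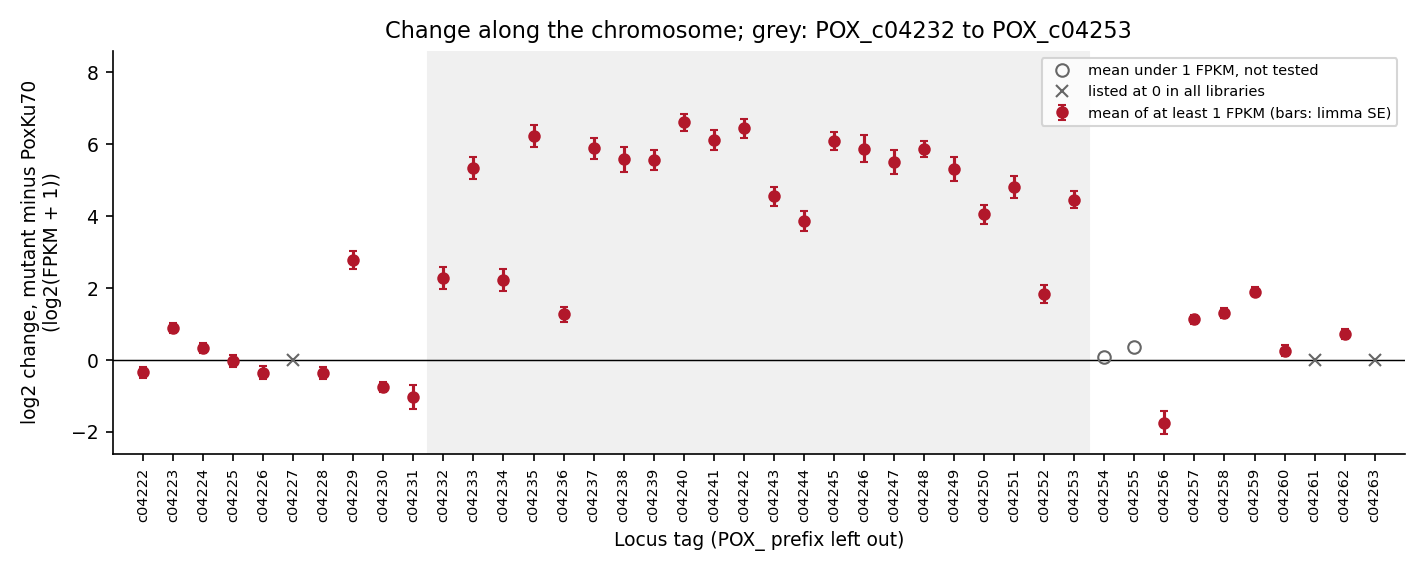
Log2 change, mutant minus PoxKu70, on the log2(FPKM + 1) scale along the 42 locus tags, with limma standard errors; open circles are genes averaging under 1 FPKM and crosses are genes listed at 0 in all libraries. Between POX_c04232 and POX_c04253 all changes lie between 1.28 and 6.61, with low points at POX_c04232, POX_c04234, POX_c04236 and POX_c04252.

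The left border lay between POX_c04231 and POX_c04232. Outside it, POX_c04230 had 28.3, 32.1 and 36.9 FPKM in mutant replicates 1 to 3, against 59.7, 53.2 and 53.7 FPKM in PoxKu70 replicates 1 to 3. POX_c04231 had 0.84, 1.49 and 2.3 FPKM in the mutant, against 4.16, 2.55 and 5.95 FPKM in PoxKu70. Both were thus lower in the mutant, without overlap of the strains, where 33.7% of all tested genes lay below PoxKu70 in this way. Inside it, POX_c04232 had 11.1, 14.7 and 26.8 FPKM in the mutant, against 2.78, 1.99 and 3.05 FPKM in PoxKu70. POX_c04233 had 255, 445 and 656 FPKM in the mutant, against 7.78, 10.9 and 9.87 FPKM in PoxKu70. The log2 change stepped by 3.31 (SD 0.35 over libraries) from POX_c04231 to POX_c04232, with a change of sign, and by a further 3.05 to POX_c04233. The low values of POX_c04231 may rest on few reads. It was no longer called lower without mutant replicate 1, without mutant replicate 2, without PoxKu70 replicate 1 or without PoxKu70 replicate 3.

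The right border lay between POX_c04253 and POX_c04254. Inside it, POX_c04253 had 80.4, 109 and 159 FPKM in mutant replicates 1 to 3, against 3.71, 4.46 and 4.22 FPKM in PoxKu70 replicates 1 to 3. The genes beyond it were close to silent in both strains. POX_c04254 had 0, 0.38 and 0.16 FPKM in the mutant, against 0.1, 0.09 and 0.11 FPKM in PoxKu70. POX_c04255 had 0.42, 0.66 and 1.31 FPKM in the mutant, against 0.27, 0.35 and 0.47 FPKM in PoxKu70. Both averaged under 1 FPKM and were not tested, so the right border of the run was set by the filter and by the next tested gene, POX_c04256. That gene had 0.89, 1.17 and 1.47 FPKM in the mutant, against 8.99, 3.43 and 7.56 FPKM in PoxKu70, 5.66-fold lower in the mutant mean. The log2 change stepped down by 4.37 (SD 0.46 over libraries) from POX_c04253 to POX_c04254. With POX_c04254 near 0 in both strains, this step is nearly the change of POX_c04253 itself, 4.46.

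The borders were not the sharpest steps of the region. Among the 41 steps between neighbouring locus tags, the right border ranked 3 and the left border ranked 6 by size. The 2 larger steps than the right border lay inside the block, from POX_c04235 to POX_c04236 (4.95 down) and from POX_c04236 to POX_c04237 (4.61 up). A step of 3.54 down, from POX_c04229 to POX_c04230, lay outside it. Medians over 3 locus tags on either side gave steps of 3.04 at the left and 4.37 at the right border, and medians over 10 gave 5.76 and 4.75. At the right border the medians over 3 were the values of POX_c04253 and POX_c04254 themselves, so that step is the single-gene step again. Locus tags listed at 0 in all libraries entered the 41 steps and the medians over 10 with a change of 0.

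Beyond the genes at the borders, the flanks held genes of both directions. Of their 20 locus tags, 15 were tested, 6 were called higher and 3 lower, and POX_c04227, POX_c04261 and POX_c04263 were listed at 0 in all 6 libraries. The background in the whole table was 30.5% higher and 30% lower. The left flank summed to 682 ± 30.7 FPKM in the mutant and 479 ± 37.5 FPKM in PoxKu70, and the right flank to 1629 ± 13.7 FPKM in mutant libraries and 476 ± 21.7 FPKM in PoxKu70 libraries (SD, n = 3 each). The right flank's sum was mainly that of POX_c04259, without which the means of its sum stood 1.77-fold apart.

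POX_c04259 was the most abundant of the 42 genes in both strains, at 1479, 1506 and 1480 FPKM in mutant replicates 1 to 3, against 401, 416 and 374 FPKM in PoxKu70 replicates 1 to 3. It was 3.75-fold higher in the mutant mean, and its mutant libraries were closer to each other than those of any gene of the block. POX_c04257 had 44, 43.2 and 49.3 FPKM in the mutant, against 20.2, 21.8 and 18.7 FPKM in PoxKu70. POX_c04258 had 38.4, 35.3 and 38.7 FPKM in the mutant, against 15.1, 16.3 and 12.5 FPKM in PoxKu70. These 3 neighbours were higher in the mutant by 2.25-fold to 3.75-fold, below the folds of all genes of the block other than POX_c04236, at 2.81-fold. POX_c04262 was 1.69-fold higher in the mutant mean, with 30.3, 32.5 and 39.7 FPKM in the mutant, against 20.1, 19.9 and 20.7 FPKM in PoxKu70.

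On the left, POX_c04229 stood alone between genes that were not called or were lower. It had 47.5, 52.9 and 90.7 FPKM in mutant replicates 1 to 3, against 7.09, 7.79 and 9.53 FPKM in PoxKu70 replicates 1 to 3. Its 7.83-fold higher mean in the mutant exceeded those of the 4 least changed genes of the block, from which POX_c04230 and POX_c04231 separated it. POX_c04223 was higher in the mutant by 1.83-fold, at 405, 414 and 439 FPKM in the mutant, against 214, 269 and 203 FPKM in PoxKu70. POX_c04222 was not called, at 86.5, 94.6 and 68.6 FPKM in the mutant, against 102, 112 and 99.5 FPKM in PoxKu70. The other tested genes of the flanks, POX_c04224, POX_c04225, POX_c04226, POX_c04228 and POX_c04260, were not called and had means in the mutant that were 0.748 to 1.27 times those in PoxKu70.

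The spread between mutant libraries was wide and shared over the block. The calls that chose the block weigh the change against the size of this spread, but which library was high or low had no part in them. The coefficient of variation over the 3 mutant libraries had a median of 37.9% over the 22 genes (range 27.8% to 54.6%). Over all tested genes the median was 15%, and over the 5886 genes within the block's range of mutant levels it was 13.8%. In PoxKu70 the median was 20.6% for the block (range 0.935% to 35.1%), against 12.6% for all tested genes and 14.8% for the 4031 within the block's range of PoxKu70 levels. Low levels are less precise, and the PoxKu70 range of the block is low, but the part of level in this spread was not tested.

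The mutant libraries differed in the same way for the whole block. All 22 genes had their highest level in mutant replicate 3, the next in replicate 2 and the lowest in replicate 1, an order found in 22.6% of all tested genes. Replicate 3 was 1.71 to 3.31 times replicate 1 (median 2.23), and replicate 2 was 1.14 to 2.05 times replicate 1 (median 1.56). The median ratio of replicate 3 to replicate 1 was 1.02 over all tested genes. It was 0.958 over the 1286 genes outside the block that were called higher by at least 1 log2 unit. The order with a ratio of at least 1.5, a bound set after the values were seen, held for 7.82% of all tested genes and for 170 of those 1286 genes. Estimated depth was lowest in replicate 1, as the block was, and highest in replicate 2. The remaining POX_a00954 level was highest in replicate 3, as the block was, at 1.56 times replicate 1, and lowest in replicate 2. The part of depth and of the POX_a00954 level in the spread of the block was not tested.

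**Figure D3:**
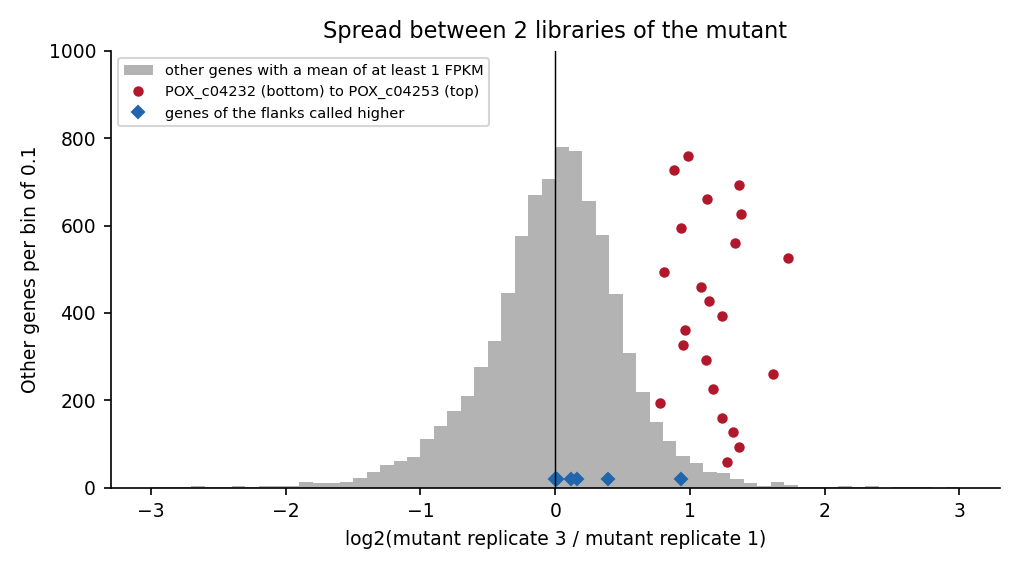
Histogram of log2(mutant replicate 3 / mutant replicate 1) for the 8275 other tested genes above 0 in both libraries (values beyond 3 in either direction drawn in the end bins), with red points for the 22 genes from POX_c04232 at the bottom to POX_c04253 at the top and blue diamonds for the 6 genes of the flanks called higher. The red points lie at ratios of 1.71 to 3.31, and the median of all tested genes is 1.02.

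This shared order gave the region an outline of its own along the chromosome. Taking consecutive tested genes with this order and a ratio of at least 1.5, the longest run of the whole table had 24 genes and reached from POX_c04231 to POX_c04256, and the next longest, POX_e07327 to POX_e07331, had 5. With the order alone, the longest run had 26 genes, POX_c04229 to POX_c04256, and the next had 6. The 24-gene run kept its ends under TPM and median-ratio scaling. With the order alone, the run had 27 genes and ended at POX_c04257 under either scaling. The 24-gene run included POX_c04231 and POX_c04256, which were lower in the mutant than in PoxKu70. Their mutant levels, at most 2.3 FPKM, may rest on few reads. This run and the 26-gene run reached POX_c04256 only by passing over POX_c04254, which was not tested. That gene lacked the order, at 0, 0.38 and 0.16 FPKM in mutant replicates 1 to 3. POX_c04229, higher in the mutant, had replicate 3 at 1.91 times replicate 1 but was cut off by POX_c04230, at 1.30 times. The order was found in 6 of the 15 tested genes of the flanks, among them POX_c04223 and POX_c04262, which were called higher. In the 5 genes of the flanks called higher other than POX_c04229, the mutant libraries were closer together than in any gene of the block, from 1.02 for highest over lowest in POX_c04259 to 1.31 in POX_c04262. The labels do not say how the mutant libraries differed in handling, so a difference between cultures and one arising later cannot be told apart.

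**Figure D4:**
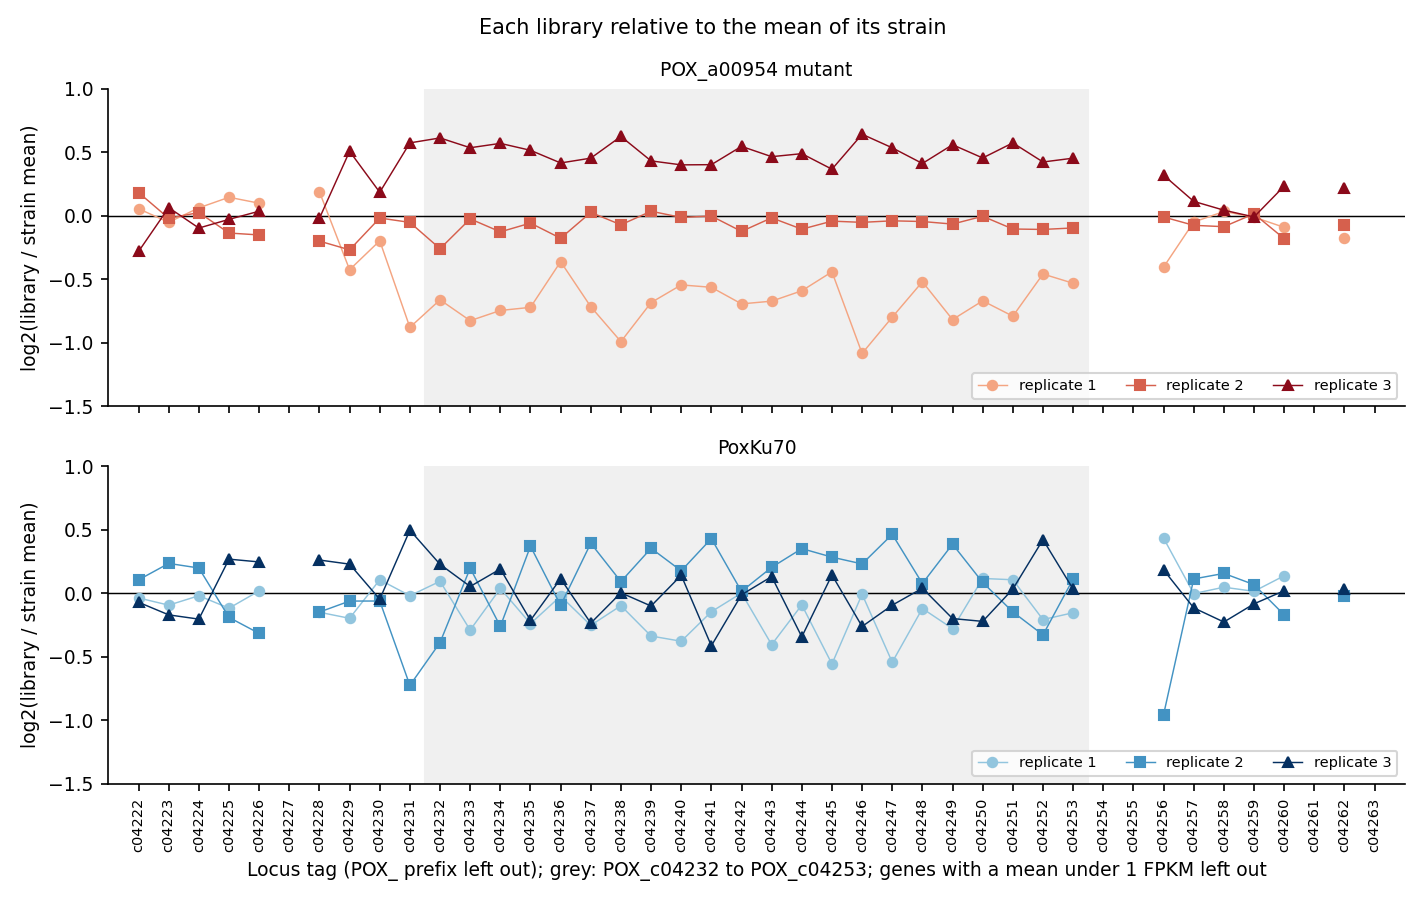
Log2 of each library over the mean of its strain along the 42 locus tags, for the mutant (top) and PoxKu70 (bottom), with genes averaging under 1 FPKM left out and the grey area marking POX_c04232 to POX_c04253. In the mutant replicate 3 is high and replicate 1 low for all 22 genes of the grey area, and in PoxKu70 replicate 2 is high for 16 of them.

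PoxKu70 libraries showed a weaker pattern, shared by part of the block. PoxKu70 replicate 2 was the highest library for 16 of the 22 genes, against 29.7% of all tested genes. All 16 were among the 18 genes of large change, for which replicate 2 was a median 1.26 times the mean of the other libraries. The ratio ran from 0.860 to 1.70 over the 18, and replicate 2 was the lowest library for 1 of them, POX_c04251. In the 4 genes of small change, POX_c04232, POX_c04234, POX_c04236 and POX_c04252, replicate 2 was the lowest each time, at 0.683 to 0.905 times the mean of the others. Replicate 2 was lowest for 42.1% of all tested genes. The ranges thus overlapped, and the difference between these groups, formed after the values were seen, was not tested. In the mutant the 4 genes had the library order of the other 18, with replicate 3 at 1.71 to 2.49 times replicate 1. In PoxKu70, 21 of the 22 genes averaged under 10 FPKM, all but POX_c04234, and the part of level in this pattern was not tested.

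The level order of the 22 genes was nearly the same in each mutant library. Spearman's rho between mutant libraries was 0.983 to 0.994 over the 22 genes, and 0.897 to 0.935 between PoxKu70 libraries. These correlations describe genes that share libraries and chromosome region. POX_c04240 was the most abundant in each mutant library, followed in the mean by POX_c04241, POX_c04248, POX_c04245, POX_c04235, POX_c04233 and POX_c04237. Below them came POX_c04242, POX_c04249, POX_c04239, POX_c04247, POX_c04246, POX_c04238 and POX_c04234, at 289 down to 151 FPKM. POX_c04251, POX_c04253 and POX_c04250 averaged 120, 116 and 106 FPKM, and POX_c04243, POX_c04244, POX_c04252, POX_c04232 and POX_c04236 averaged 36.6 down to 12.6 FPKM.

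Neighbours in this order mostly could not be separated by their spread. Of the 21 neighbouring pairs in the mutant, the ranges over the libraries were apart in 1, between POX_c04250, whose lowest library had 66.8 FPKM, and POX_c04243, whose highest had 50.6 FPKM. Because the libraries moved together, the order within a library was steadier than these ranges show. In 221 of all 231 pairs of genes the same gene was higher in all 3 mutant libraries, although the ranges were apart in only 145. In PoxKu70 the same gene was higher in all 3 libraries in 196 pairs, and the ranges were apart in 168. Among neighbours the same gene was higher in all 3 libraries in 14 of 21 pairs in the mutant and in 6 of 21 in PoxKu70. Neighbours in PoxKu70 were apart in 3 of 21 pairs, POX_c04234 above POX_c04233, POX_c04253 above POX_c04251, and POX_c04244 above POX_c04243.

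The order in the mutant resembled that in PoxKu70 in part. Over the 22 genes, Pearson's r between log2(mean FPKM + 1) in the mutant and in PoxKu70 was 0.43 (Spearman's rho 0.55). Over the 18 genes of large change Pearson's r was 0.82. The second value leaves out genes chosen by their change and is a description only. The exceptions can be read from the places of single genes. POX_c04234 was first of the 22 in PoxKu70 and 14 in the mutant, while POX_c04242 was 18 in PoxKu70 and 8 in the mutant. The size of the change and the ratio of mutant replicate 3 to replicate 1 had a Pearson's r of 0.22 (Spearman's rho 0.06) over the 22 genes, which share these libraries.

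**Figure D5:**
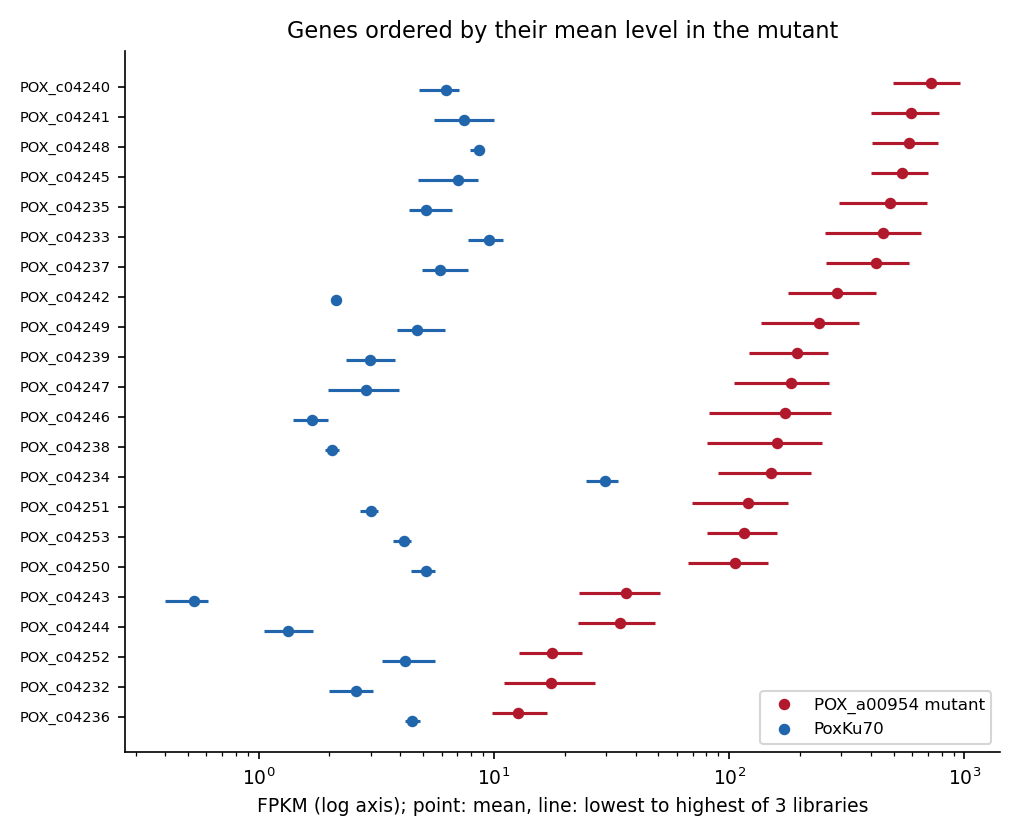
Mean FPKM (points) and the range over 3 libraries (lines) on a log axis for the 22 genes, ordered by their mean in the mutant, with mutant values in red above PoxKu70 values in blue. Mutant means run from 12.6 FPKM for POX_c04236 to 724 FPKM for POX_c04240, and PoxKu70 means from 0.53 to 29.6 FPKM in a different order.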

How the data were processed

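Poly(A) RNA of mycelium was sequenced in 6 libraries. Each library has a file of its own, in which the authors deposited FPKM values to 2 decimals, per the file headers. The submitters' processing notes name bcl2fastq and HISAT2 and no version of either. Counting method, build and annotation were not given in the sources used here, so no coordinates are printed. The library protocol in the labels describes no step that marks the strand, and overlapping neighbours may share reads. FPKM is relative to each library's total, so a very abundant gene lowers all others.

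All 6 libraries entered a two-sided linear model of log2(FPKM + 1) on genotype, fitted with lmFit and eBayes (trend) of limma 3.58.1 under R 4.3.3. The 8448 genes averaging at least 1 FPKM were tested, 37 of the 42 described here among them, with Benjamini-Hochberg adjustment over all of them and a threshold of 0.05. The fit was checked on simulated data. Log2 changes on this scale understate those of weakly expressed genes, and folds are ratios of mean FPKM. All p-values measure no more than the spread between replicate libraries, which may be technical. Relative depth was estimated from the most frequent ratio between libraries of low values (at most 4 FPKM, listed at 0 in at least 2 libraries) in 258 genes, with Python 3.11.15 and numpy 2.4.6.

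The genes and lists were chosen with earlier results of these data known. Values in every library are given, by rule, for the 5 most and 3 least abundant genes of the block in the mutant, the 3 largest and 3 smallest log2 changes, the 2 locus tags on either side of each border, and flank genes called or above 100 FPKM. POX_c04243, the grouping of 18 and 4 genes and the counts of library order were chosen after the values were seen. Titles share replicate numbers across strains. Deviations of equal-numbered libraries from the strain means correlated at -0.06, -0.0029 and 0.15, so the libraries were not treated as pairs. Alternatives were a replicate block, each library left out in turn, TPM and median-ratio scaling, pseudocounts of 0.1 and 5 FPKM, a minimum mean of 5 FPKM, and no filter. Protein and promoter sequences and product names were not used here. Figures were drawn with matplotlib 3.10.9.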

Additional observations from a re-analysis of the deposited data

How the results depend on the processing

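All 22 genes of the block were called higher under each of the 13 alternative fits, which reuse the libraries that chose the block and are no separate support. The count of genes called in the whole table was 5103 with a replicate block and lay between 4316 and 5113 with any single library omitted. The log2 ratio of the summed block level was 5.23 to 5.78 when each library was left out. Under TPM scaling it was lower, at 5.16, and the median log2 change of the block was 5.03. TPM scaling gave 1655 higher and 3911 lower calls and 6 lower calls in the flanks, POX_c04222, POX_c04226 and POX_c04228 being added. With a minimum mean of 5 FPKM, 1 lower call remained in the flanks, since POX_c04231 and POX_c04256 were then not tested. Leaving out each library gave 2 to 4 lower and 6 to 7 higher calls there. The left border step was 4.04 with a pseudocount of 0.1 FPKM, 1.99 with one of 5 FPKM and 5.76 for medians of 10 locus tags, and the right border step was 3.66 with a pseudocount of 5 FPKM. Higher pseudocounts shrink steps between low values by construction. When each library was left out, the steps were 3.16 to 3.43 and 4.11 to 4.51. Of 310 refitted log2 changes of the genes named by rule, 305 kept direction and call, 4 lost the call (all POX_c04231) and 1 gained it (POX_c04222 under TPM scaling). Low level limits the values of POX_c04231, POX_c04243, POX_c04254, POX_c04255 and POX_c04256. It also limits the PoxKu70 values of the block, where 13 genes averaged under 5 FPKM, and the folds that rest on them.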
